A study of Mus musculus and Rattus norvegicus with 21 samples.

Results

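The adrenomedullin ligand and receptor genes are Adm, Adm2, Calcrl, Ramp1, Ramp2 and Ramp3, 6 of the 21000 mouse protein-coding genes that have a curated RefSeq transcript. They were chosen by name for their place in one signalling pathway, with earlier results of these data known. Adm and Adm2 encode the peptide hormones adrenomedullin and adrenomedullin 2 (also called intermedin). Both peptides act through CALCRL, a G protein-coupled receptor that raises cAMP and that reaches the cell surface only together with a receptor activity-modifying protein (RAMP). The RAMP sets which peptide the receptor prefers: RAMP1 makes it a receptor for calcitonin gene-related peptide, whereas RAMP2 and RAMP3 make it a receptor for adrenomedullin. The pathway is best known for widening blood vessels and for the growth and tightness of blood and lymphatic vessels, and the thyroid gland is densely supplied with capillaries around its follicles.

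Thyroid glands were profiled by sequencing of immunoprecipitated chromatin (ChIP-seq), from C57BL/6 mice labelled as 1 month old. Histone H3 trimethylated at lysine 4 (H3K4me3, a mark of active or poised promoters) and at lysine 27 (H3K27me3, a mark placed by Polycomb complexes) were mapped in Glis3KO-LID, WT-LID, Glis3KO-ND and WT-ND thyroids, where Glis3KO mice carried the allele labelled B6.Glis3<tm2(mCherry)Amj>, WT mice had no altered allele named, LID is a low iodine diet (TD.95125) and ND is the NIH-31 normal diet. NKX2.1 and PAX8, transcription factors (TFs) of the thyroid follicle cell, were mapped in thyroids labelled WT-LID alone, so no genotype or diet could be compared for them. According to the study's methods the mice of the TF libraries were instead Glis3-EGFP mice that were older and fed the LID for longer, and the knockout allele is numbered differently there, a conflict that was not resolved, so TF peaks and histone regions may come from different kinds of mice. Each mark or TF had 1 library in each group, how many glands went into a library is not stated, and the lists hold intervals with no score, so every value below is from 1 library, has no error and was not tested. In whole glands, fewer cells carrying a mark and less of the mark in each cell cannot be told apart.

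There were 46636 peaks of NKX2.1 and 51586 of PAX8, each 300 bp wide. The H3K4me3 lists were of similar length, with 15692 regions in Glis3KO-LID and between 16590 and 17044 in the others. The H3K27me3 list of Glis3KO-LID stood apart, with 18040 regions over 55.11 Mb, compared with 2631 to 4116 regions over 7.472 to 13.26 Mb in the other 3, so counts of genes with H3K27me3 are also given with all lists kept at their 2631 widest regions. The WT-LID list holds only 2631 regions, so nothing was cut from it. For gene combinations, TF peaks and related lists the comparison at equal length was chosen after seeing the data. Read numbers are unknown, and whether depth differed between these libraries was not tested. Of 10 thyrocyte markers, 10, 8, 10 and 9 had H3K4me3 within 1 kb of a transcription start site (TSS) in Glis3KO-LID, WT-LID, Glis3KO-ND and WT-ND, and the thyroglobulin gene Tg had none in either WT library. Glis3 itself had H3K4me3 in all 4 libraries (1356, 1311, 1548 and 1337 of 2001 bases in the same order), but a promoter mark does not show whether the allele is disrupted, so it is no check of the genotype.

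The sequences that carry the binding results are shown first. The study's TF peaks lie on mm10, the same assembly as GRCm38, and all positions and sequences are from GRCm38.p6 of RefSeq. In every sequence, capitals mark the letters CTCAAG or CACTT, which belong to NKX2.1 sites, and GTCANGC, which belongs to the PAX8 paired-domain site, on either strand. The first set holds the bases shared by an overlapping NKX2.1 and PAX8 peak whose nearest protein-coding TSS was that of Adm or Adm2, and at the Adm2 promoter only the bases before the TSS are printed.
Adm, 3686 to 3776 bp past the TSS, chr7:110631343-110631433, plus strand: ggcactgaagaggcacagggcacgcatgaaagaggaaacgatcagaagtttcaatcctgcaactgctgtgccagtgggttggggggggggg
Adm, 10881 to 11105 bp past the TSS, chr7:110638538-110638762, plus strand: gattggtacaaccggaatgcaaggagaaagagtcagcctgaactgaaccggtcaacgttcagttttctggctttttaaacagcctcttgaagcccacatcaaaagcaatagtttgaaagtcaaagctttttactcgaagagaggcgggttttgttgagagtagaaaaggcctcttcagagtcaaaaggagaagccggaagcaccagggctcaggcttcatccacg
Adm, 11709 to 11956 bp past the TSS, chr7:110639366-110639613, plus strand: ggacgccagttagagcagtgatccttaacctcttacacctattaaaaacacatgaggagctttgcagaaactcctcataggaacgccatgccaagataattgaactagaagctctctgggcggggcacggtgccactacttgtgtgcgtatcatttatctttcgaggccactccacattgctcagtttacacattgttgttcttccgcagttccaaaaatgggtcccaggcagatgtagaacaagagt
Adm, 22773 to 23019 bp past the TSS, chr7:110650430-110650676, plus strand: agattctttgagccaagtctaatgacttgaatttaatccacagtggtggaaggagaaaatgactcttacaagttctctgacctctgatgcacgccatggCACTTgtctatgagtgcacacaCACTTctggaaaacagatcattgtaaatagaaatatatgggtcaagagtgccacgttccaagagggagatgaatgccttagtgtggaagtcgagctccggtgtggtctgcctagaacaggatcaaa
Adm2 promoter, chr15:89322573-89322719, plus strand: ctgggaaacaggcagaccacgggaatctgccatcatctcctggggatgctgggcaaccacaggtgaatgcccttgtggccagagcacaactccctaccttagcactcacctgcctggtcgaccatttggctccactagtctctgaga
Adm2, 3747 to 4037 bp past the TSS, chr15:89326467-89326757, plus strand: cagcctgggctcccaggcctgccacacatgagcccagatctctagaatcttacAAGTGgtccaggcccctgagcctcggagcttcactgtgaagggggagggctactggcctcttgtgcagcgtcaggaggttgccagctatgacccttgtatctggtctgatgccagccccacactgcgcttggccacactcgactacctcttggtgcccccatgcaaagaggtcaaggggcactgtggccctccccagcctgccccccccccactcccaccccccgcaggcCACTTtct

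The second set holds the PAX8 peaks found inside the receptor genes, in intron 2 of Calcrl and intron 1 of Ramp3, which differ in their letters. The third set holds the 250 bases before the TSS of Ramp1 and Ramp3, which were among the promoters that bore both histone marks in 1 library.
Calcrl intron 2, chr2:84387107-84387406, minus strand: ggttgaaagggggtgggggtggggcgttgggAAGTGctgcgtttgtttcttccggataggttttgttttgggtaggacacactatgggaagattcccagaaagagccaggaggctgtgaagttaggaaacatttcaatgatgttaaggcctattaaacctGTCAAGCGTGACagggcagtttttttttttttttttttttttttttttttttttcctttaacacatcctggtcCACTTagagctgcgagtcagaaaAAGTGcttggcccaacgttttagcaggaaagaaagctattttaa
Ramp3 intron 1, chr11:6662958-6663257, plus strand: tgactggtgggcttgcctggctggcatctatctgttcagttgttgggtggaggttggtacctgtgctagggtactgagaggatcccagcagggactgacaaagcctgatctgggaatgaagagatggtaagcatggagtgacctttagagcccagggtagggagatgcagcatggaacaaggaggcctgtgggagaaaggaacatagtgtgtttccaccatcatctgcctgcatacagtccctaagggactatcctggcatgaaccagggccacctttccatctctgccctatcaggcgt
Ramp1 promoter, chr1:91179572-91179821, plus strand: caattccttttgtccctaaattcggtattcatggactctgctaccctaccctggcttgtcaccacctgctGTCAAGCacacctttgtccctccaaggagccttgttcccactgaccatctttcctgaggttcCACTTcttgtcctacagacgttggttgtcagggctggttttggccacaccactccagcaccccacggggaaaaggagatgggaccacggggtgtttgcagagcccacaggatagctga
Ramp3 promoter, chr11:6658283-6658532, plus strand: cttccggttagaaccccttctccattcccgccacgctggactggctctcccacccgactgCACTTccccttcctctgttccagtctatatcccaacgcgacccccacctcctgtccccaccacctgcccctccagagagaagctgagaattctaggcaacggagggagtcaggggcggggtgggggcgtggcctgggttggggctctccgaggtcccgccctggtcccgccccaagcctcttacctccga

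Of the 6 genes, 5 of 6 had an NKX2.1 peak in the gene or within 50 kb either side, against 79.3% of all protein-coding genes, and 6 of 6 had a PAX8 peak, against 80.8%. An NKX2.1 peak that overlapped a PAX8 peak was found at 4 of 6 genes, against 65.1%. These windows catch most genes, so such counts say little about the 6. Nearer the start, within 5 kb of a TSS, 2 of 6 genes (Adm and Adm2) had an NKX2.1 peak, 3 of 6 (Adm, Adm2 and Ramp3) a PAX8 peak and 2 of 6 (Adm and Adm2) an overlapping pair, against 35.4%, 42.0% and 16.8% of all genes. The peaks near a TSS lay at both ligand genes and at 1 of the 4 receptor component genes.

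In total, the 6 windows held 23 NKX2.1 and 33 PAX8 peaks, which formed 13 overlapping pairs. The nearest protein-coding TSS was that of the gene itself for 20 of the 56 peaks (35.7%) and for 6 of the 13 pairs, all of them at Adm and Adm2. Of the NKX2.1 peaks, 10 were intergenic, 11 in introns and 2 in exons, and of the PAX8 peaks 15 were intergenic, 15 in introns and 3 in exons. The share of peaks in a pair was 56.5% for NKX2.1 and 39.4% for PAX8, next to 50.8% and 45.9% of all peaks of these TFs. The midpoints of paired peaks were a median of 33 bp apart, and the widest apart was the first pair past Adm, at 209 bp with 91 bp in common.

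**Figure D1:**
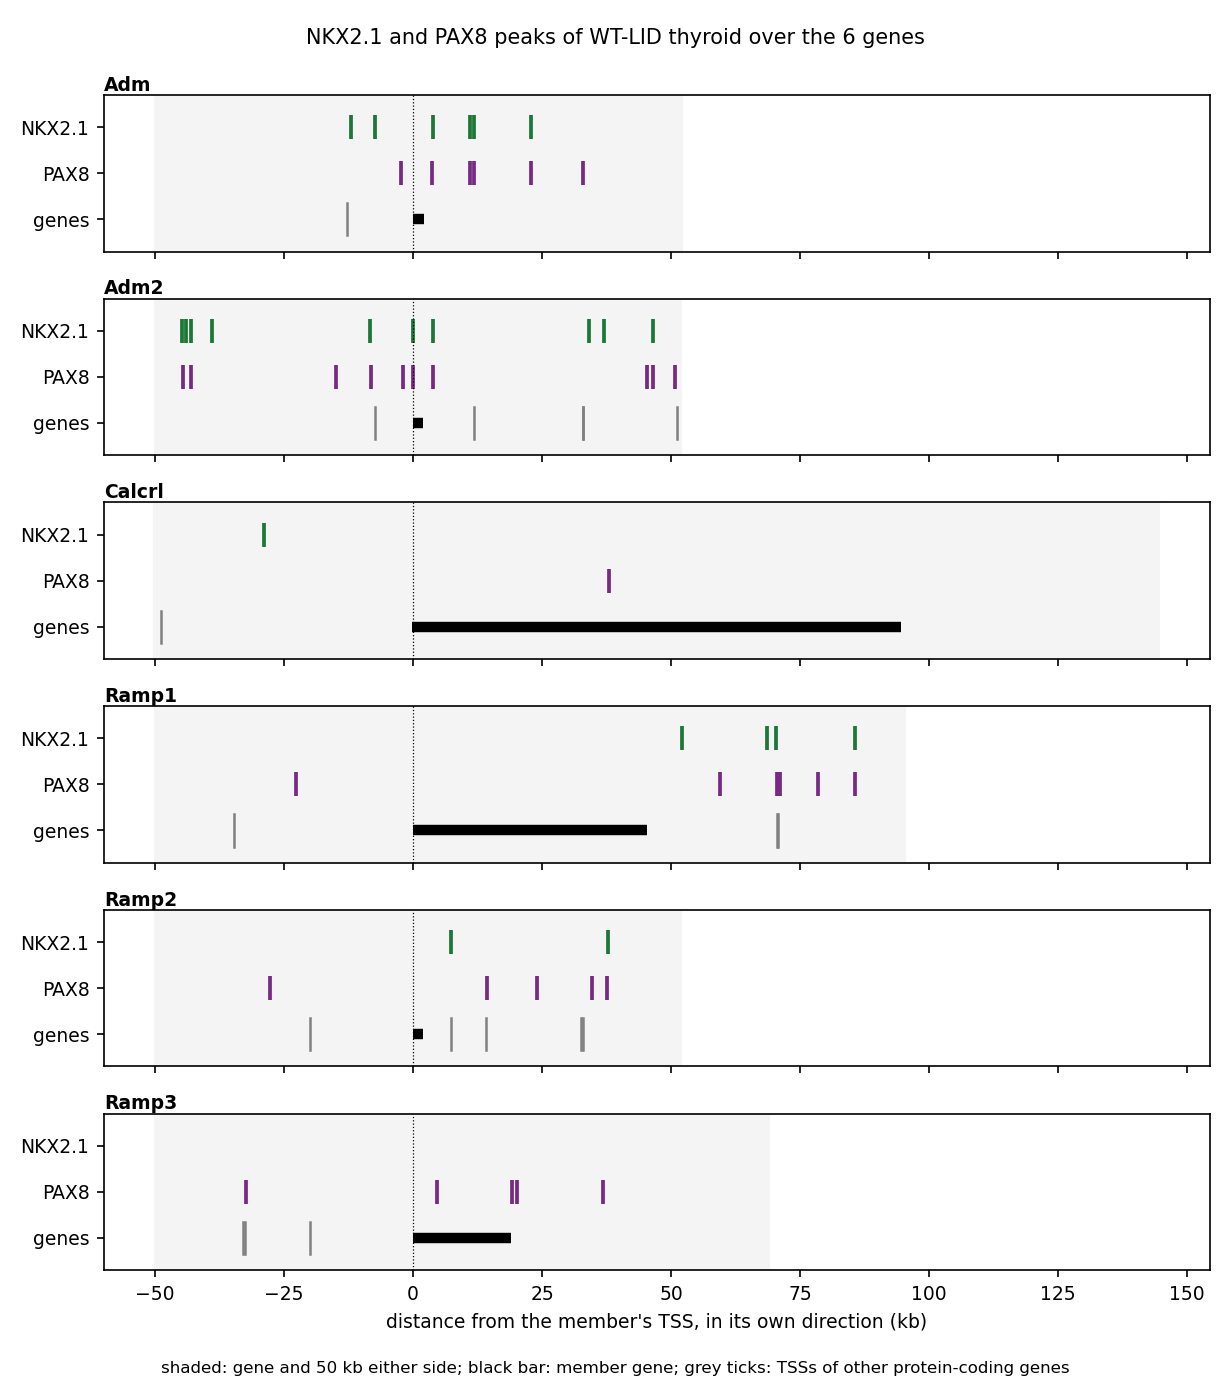
Positions of NKX2.1 (green, top row) and PAX8 (purple, middle row) peak midpoints of WT-LID thyroid relative to the TSS of each gene, in kb in the direction of the gene, with the gene as a black bar, TSSs of other protein-coding genes as grey ticks and the 50 kb flanks shaded. Of the pairs, 1 of 4 at Adm and 2 of 6 at Adm2 lie within 5 kb of the TSS. Most of the Ramp1 peaks lie past the gene towards the Ube2f TSS 70482 bp downstream, and Ramp3 has no NKX2.1 peak.

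Adm (chr7:110627657-110629820, plus strand, gene ID 11535) had 6 NKX2.1 and 6 PAX8 peaks, and for 4 NKX2.1 and all 6 PAX8 peaks its TSS was the nearest. Upstream, a lone PAX8 peak was centred 2410 bp before the TSS. Downstream of the gene, which is only 2164 bp long, 4 pairs followed, with NKX2.1 midpoints 3835, 11030, 11858 and 22869 bp past the TSS and PAX8 midpoints at 3626, 10955, 11806 and 22922 bp, and a further PAX8 peak lay at 32844 bp. All of these peaks were intergenic. The other NKX2.1 peaks, 7425 and 11990 bp upstream, were nearer to the TSS of Sbf2, a gene read in the opposite direction from a start 12737 bp away.

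The bases shared by the pairs past Adm held few of the NKX2.1 and PAX8 letters. The shared stretches of the first 3 held none of the NKX2.1 or PAX8 letters, and the last stretch held CACTT at 2 places, as the capitals above show. Counted over the full 300 bp, the 4 paired NKX2.1 peaks held 0, 1, 0 and 3 matches to CACTT. In relation to all genes, 70.3% had fewer NKX2.1 peaks, 65.8% fewer PAX8 peaks and 80.1% fewer pairs than Adm, and its 11.7 peaks of either TF per 100 kb of window were above those of 85.3% of genes, for which the median was 5.401.

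Adm2 (chr15:89322720-89324731, plus strand, gene ID 223780) had the most peaks of the 6 genes, 10 of NKX2.1 and 10 of PAX8 with 6 pairs. Its 19.6 peaks per 100 kb exceeded the density of 99.1% of protein-coding genes, and 91.2%, 88.3% and 92.3% of genes had fewer NKX2.1 peaks, PAX8 peaks and pairs. One pair sat on the TSS itself, with the NKX2.1 midpoint 2 bp past it, in exon 1, and the PAX8 midpoint 12 bp before it. Another pair was centred 3896 and 3887 bp past the TSS, beyond the end of the 2012 bp gene, and a lone PAX8 peak lay 1892 bp upstream.

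The remaining 15 peaks of the Adm2 window were nearer to other genes, in a stretch of chromosome 15 that is crowded with starts. A pair 8255 and 8222 bp upstream lay in intron 1 of Sbf1, close to the Sbf1 TSS. A group of 4 NKX2.1 and 2 PAX8 peaks between 38860 and 44722 bp upstream lay in introns of Ppp6r2, and peaks from 34101 bp downstream onwards lay in Ncaph2 and Sco2. The high density around Adm2 therefore counts binding near at least Sbf1, Ppp6r2, Ncaph2 and Sco2 as well, and no peak list says which gene a peak serves.

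Of the receptor genes, Calcrl (chr2:84330626-84425405, minus strand, gene ID 54598) was the poorest in peaks although its window of 194780 bp was the longest. It had 1 PAX8 peak, 38010 bp past the TSS in its own intron 2, and 1 NKX2.1 peak 28955 bp upstream, in intron 3 of Tfpi. The 2 peaks made 1.03 per 100 kb, a density that exceeded that of 21.6% of genes. The intronic PAX8 peak held GTCANGC on both strands, where the 2 matches overlap, together with CACTT at 3 places. The PAX8 peak of Ramp3 intron 1 held none of these letters.

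Ramp1 (chr1:91179822-91225196, plus strand, gene ID 51801) had 4 NKX2.1 and 6 PAX8 peaks, none of them nearest to its own TSS and none within the gene. The closest, a PAX8 peak 22634 bp upstream, lay in intron 8 of Rbm44. All the others were past the end of the gene, and the pair at 70419 and 70451 bp was 63 and 31 bp from the TSS of Ube2f. Ramp2 (chr11:101246334-101248250, plus strand, gene ID 54409) had 2 NKX2.1 and 5 PAX8 peaks, again none nearest to its own TSS. Its NKX2.1 peak 7406 bp downstream was 33 bp from the TSS of Vps25, its PAX8 peak 14249 bp downstream was 16 bp from that of Wnk4, and its 1 pair lay in intron 3 of Cntd1.

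Ramp3 (chr11:6658506-6677478, plus strand, gene ID 56089) was the only one of the 6 with PAX8 peaks and no NKX2.1 peak in its window. Of its 5 PAX8 peaks, 1 was in its intron 1, 4574 bp past the TSS, and those at 19092, 20116 and 36903 bp lay beyond the gene, while the peak 32404 bp upstream was 62 bp from the TSS of Tbrg4. In all, 56.9% of genes had fewer PAX8 peaks than Ramp2 or Ramp3. The density of 6.88 peaks per 100 kb at Ramp1, 6.87 at Ramp2 and 4.2 at Ramp3 exceeded that of 60.4%, 60.3% and 41.8% of genes.

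**Figure D2:**
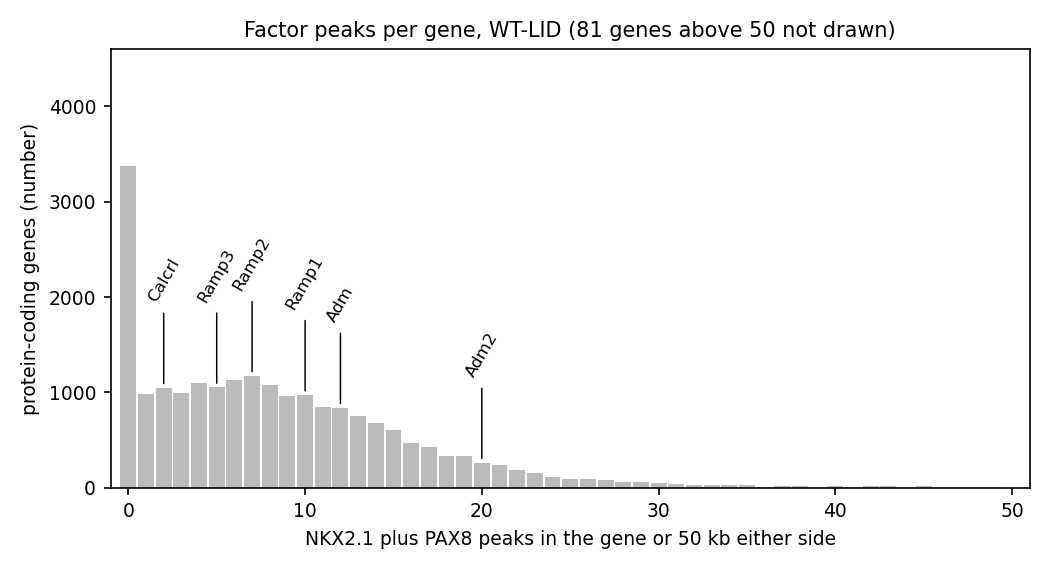
Number of protein-coding genes (vertical axis) with each number of NKX2.1 plus PAX8 peaks in the gene or 50 kb either side (horizontal axis) in WT-LID thyroid, with the 6 genes marked. Calcrl with 2 peaks lies near the low end and Adm2 with 20 in the upper tail, and 81 genes with more than 50 peaks are not drawn.

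Over all member peaks, CACTT was found in 20 of 23 NKX2.1 peaks (87.0%, against 68.9% of all NKX2.1 peaks) and in 20 of 33 PAX8 peaks (60.6%, against 61.2% of all PAX8 peaks). The longer CTCAAG was in 3 of 23 NKX2.1 peaks (13.0%, against 33.6%) and GTCANGC in 6 of 33 PAX8 peaks (18.2%, against 19.8%). The letters TGACG, which begin the cAMP response element, was in 4 of 23 NKX2.1 and 5 of 33 PAX8 peaks (17.4% and 15.2%, against 12.8% and 15.1%), and the hypoxia response element core ACGTG in 7 of each (30.4% and 21.2%, against 15.5% and 16.7%). TGGGGGG, the G-rich part of a GLIS site, was in 5 of 23 NKX2.1 and 3 of 33 PAX8 peaks (21.7% and 9.09%, against 4.13% and 4.01%). All searches covered both strands, CACTT can share its last bases with the reverse strand of CTCAAG, and TGACG can share bases with ACGTG and with the reverse strand of GTCANGC. Paired peaks share most of their sequence, so these counts are not independent, and a match is not evidence of binding to those letters.

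RefSeq promoters, from 250 bp before to 50 bp after the TSS, were matched for 5 of the 6 genes, all but Ramp2. Among these 5, CACTT was in the promoters of Calcrl, Ramp1 and Ramp3 (3 of 5, against 46.4% of 32851 promoters), GTCANGC and TGACG were in that of Ramp1 alone (against 10.7% and 20.8%), and TGGGGGG was in that of Adm alone (against 8.47%). CTCAAG and ACGTG were in none of the 5 (against 15.9% and 19.6%), and the Adm2 promoter held none of the 6 letter strings. Over their full 300 bp, the NKX2.1 and PAX8 peaks on the Adm2 TSS each held 1 match to CACTT, outside the bases printed above. In base composition, the 2001 bases around the TSS had an observed over expected CpG ratio of 0.452 in Adm, 0.277 in Adm2, 0.305 in Calcrl, 0.403 in Ramp1, 0.467 in Ramp2 and 0.233 in Ramp3. All 6 were below the median of all genes, 0.498, some of them only a little. The ratio was higher than in 46.7% of genes at Ramp2, 45.0% at Adm and 40.7% at Ramp1. It was higher than in 32.9% at Calcrl, 30.4% at Adm2 and 25.6% at Ramp3. Calcrl also had a low G and C content of 38.0%, higher than 6.01% of genes, whereas the others lay between 50.2% and 57.8%, around the median of 51.7%.

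The histone marks were compared next, to see whether the promoters of the pathway differed with genotype and diet. H3K4me3 was found within 1 kb of the TSS at 4 of 6 genes in Glis3KO-LID, 6 of 6 in WT-LID, 5 of 6 in Glis3KO-ND and 5 of 6 in WT-ND, against 60.1%, 63.0%, 62.5% and 62.2% of all protein-coding genes. H3K27me3 was found at 4 of 6 genes in Glis3KO-LID, 1 of 6 in WT-LID and 0 of 6 in each of Glis3KO-ND and WT-ND, against 17.5%, 6.5%, 8.68% and 6.44% of all genes. With each H3K27me3 list kept to its 2631 widest regions, the Glis3KO-LID count was 2 of 6 (Ramp1 and Ramp3), against 7.5% of all genes. The WT-LID list was not cut, so its count of 1 of 6 (Ramp1), against 6.5%, could not change. No score or replicate bears on these differences. With the full lists, Adm2, Ramp2 and Ramp3 had H3K27me3 in Glis3KO-LID alone, and Ramp1 had it in Glis3KO-LID and WT-LID.

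**Figure D3:**
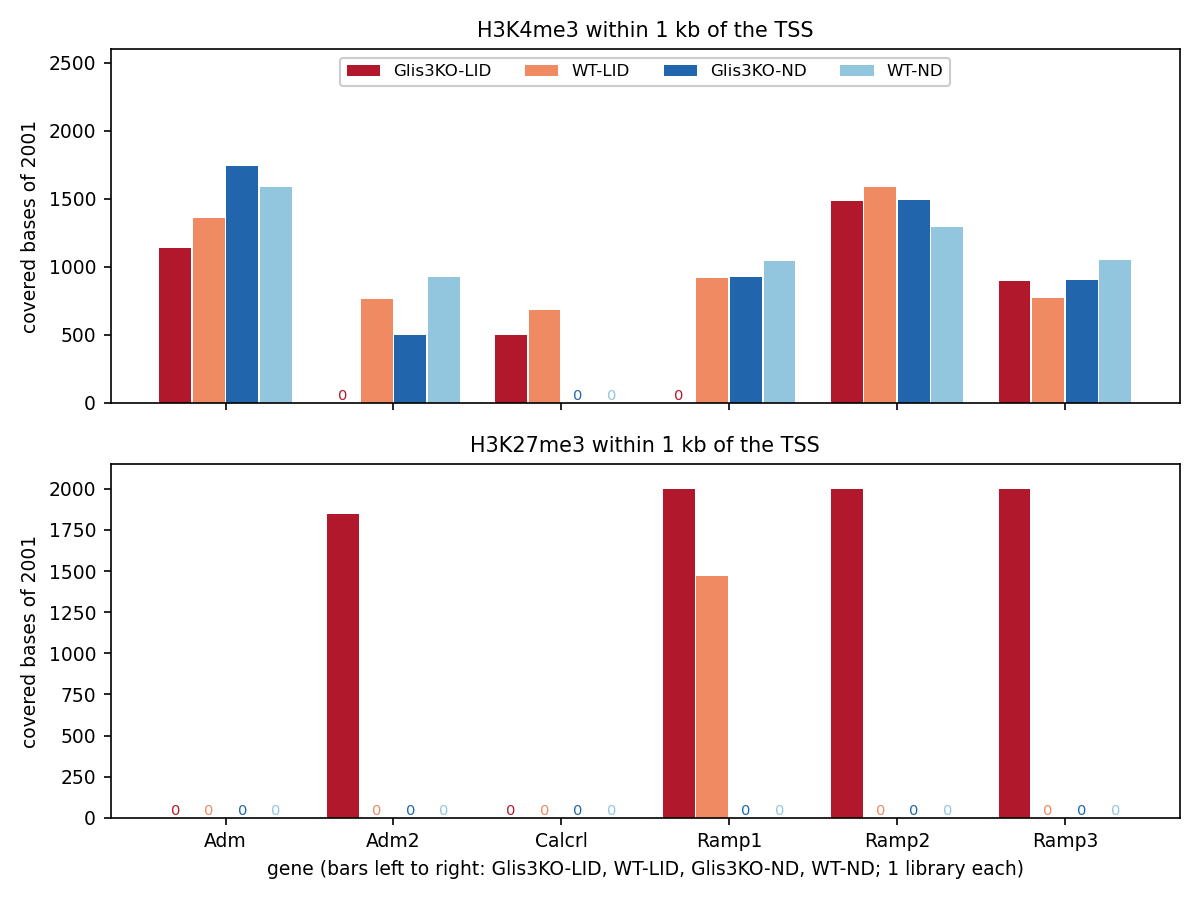
Bases of the 2001 within 1 kb either side of the TSS that were covered by H3K4me3 (top) and H3K27me3 (bottom) regions, for each gene in Glis3KO-LID, WT-LID, Glis3KO-ND and WT-ND, with 1 library behind each bar and no error. Adm2 and Ramp1 have no H3K4me3 in Glis3KO-LID, Calcrl has it on the LID alone, and H3K27me3 covers 1849 to 2001 bases of Adm2, Ramp1, Ramp2 and Ramp3 in Glis3KO-LID.

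Adm, which encodes the first of the ligands, had H3K4me3 in all 4 libraries and no H3K27me3 region in any, neither at the TSS nor within 50 kb of the gene. The covered length was 1138 bases in Glis3KO-LID, 1358 in WT-LID, 1745 in Glis3KO-ND and 1584 in WT-ND. The mark covered fewer bases of the window on the LID than on the ND in both genotypes, with LID minus ND differences of -607 bases in Glis3KO and -226 in WT. The genotype difference had opposite signs on the 2 diets. In Glis3KO the whole region was similarly wide on both diets, 2834 bp on the LID and 2848 bp on the ND. It began 137 bp before the TSS on the LID and 744 bp before it on the ND. In WT the region at the TSS was 2176 bp wide on the LID and 4088 bp on the ND. Among marked genes whose window was also 2001 bases, the median was 1300, 1443, 1393 and 1415 bases in the same order of libraries, so Adm was below that median on the LID and above it on the ND.

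At Adm the region passed the end of the short gene in Glis3KO-LID and WT-ND and stopped short of it in WT-LID and Glis3KO-ND. It reached 2696 bp past the TSS in Glis3KO-LID, 1818 bp in WT-LID, 2103 bp in Glis3KO-ND and 3504 bp in WT-ND, where it touched the PAX8 peak of the first downstream pair over 28 of its 300 bases. The other pairs past the gene lay outside H3K4me3 in every library, as did the PAX8 peak 2410 bp upstream. By the covered bases of both marks in the 8 histone libraries, the genes most like Adm were Cops3, Nf2 and Usp19 (Euclidean distances of 79.5, 106 and 108 bases, with no ties).

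Adm2, the second ligand, had a different pattern in Glis3KO-LID. H3K4me3 covered 0 bases in Glis3KO-LID, 766 in WT-LID, 501 in Glis3KO-ND and 929 in WT-ND, and H3K27me3 covered 1849 bases in Glis3KO-LID and 0 in the other 3. H3K4me3 in Glis3KO was thus below that in WT on both diets, with Glis3KO minus WT differences of -766 bases on the LID and -428 on the ND, and the region of 501 bp in Glis3KO-ND was as narrow as any in that list. The H3K27me3 region of Glis3KO-LID ran from 848 bp before to 2059 bp after the TSS, over the whole gene. It was 2908 bp wide, wider than 74.3% of the regions in its list, but was lost when that list was kept to its 2631 widest regions, the narrowest of which measured 4869 bp.

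The NKX2.1 and PAX8 pair at the Adm2 TSS stood within these marks to a different extent in each library. H3K4me3 covered 0 of the 300 bases of the NKX2.1 peak in Glis3KO-LID, 0 in WT-LID, 134 in Glis3KO-ND and 300 in WT-ND, and 0, 0, 120 and 300 bases of the PAX8 peak. In WT-LID, the group in which the TFs were mapped, the H3K4me3 region began 235 bp past the TSS, just beyond the pair, and went on to 2665 bp. That region was 2431 bp wide, compared with 929 bp in WT-ND, and with a window of 2 kb either side the share covered was higher in WT-LID than in WT-ND by 20.9 percentage points. H3K27me3 of Glis3KO-LID covered all 300 bases of both peaks.

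Elsewhere in the Adm2 window the H3K4me3 regions at the TSSs of Sbf1, Lmf2 and Ncaph2, and Sco2 were present in all 4 libraries, Glis3KO-LID included. Of the TSSs in this window with H3K4me3 in WT-LID, only that of Adm2 lacked it in Glis3KO-LID. Another H3K27me3 region of Glis3KO-LID, 12059 to 13360 bp past the Adm2 TSS, lay at Miox, an inositol oxygenase gene known from kidney. The genes closest to Adm2 in covered bases were Arhgef15, Klhl33 and Actl10 (distances of 295, 347 and 376 bases).

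Calcrl, the receptor gene, had H3K4me3 on the LID alone. The mark covered 501 bases in Glis3KO-LID, 683 in WT-LID and 0 in both Glis3KO-ND and WT-ND. The regions lay past the TSS, from 459 to 959 bp in Glis3KO-LID and from 318 to 1120 bp in WT-LID, and the width of 501 bp in Glis3KO-LID is the smallest in that list. No H3K27me3 region was found in the whole Calcrl window in any library. Of the blood endothelial markers, the receptor gene Tek had the same pattern, with 628, 501, 0 and 0 bases in Glis3KO-LID, WT-LID, Glis3KO-ND and WT-ND. Pecam1 had 1197, 501, 0 and 26 bases and Cdh5, the VE-cadherin gene, 501, 1401, 507 and 119. Other markers of the list differed from Calcrl: Robo4 had 0, 0, 628 and 436 bases, Esam 0, 1367, 955 and 1019, and Kdr 2001, 2001, 1893 and 1732. In that order of libraries 8, 9, 7 and 8 of 12 such markers had H3K4me3, against 60.1%, 63.0%, 62.5% and 62.2% of all genes. Calcr, the calcitonin receptor gene, had 501, 501, 0 and 0 bases. The part of the cell makeup of the glands in the values of Calcrl was not tested. Of all protein-coding genes, 64 (0.305%) had H3K4me3 in both LID libraries and in neither ND library. Among the genes closest to Calcrl, Acat3, Hcar1 and Rgs4 (distances of 10, 29 and 57 bases, the last with 2 genes at that distance), each had a region of 501 bases in Glis3KO-LID too.

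Ramp1, whose product turns CALCRL into the receptor for calcitonin gene-related peptide, was like Adm2 in lacking H3K4me3 in Glis3KO-LID. H3K4me3 covered 0 bases in Glis3KO-LID, 922 in WT-LID, 925 in Glis3KO-ND and 1041 in WT-ND. H3K27me3 covered 2001 bases in Glis3KO-LID, 1473 in WT-LID and 0 in both Glis3KO-ND and WT-ND. Glis3KO-LID therefore had H3K27me3 without H3K4me3, WT-LID had both marks, with 922 bases under regions of both, and the ND libraries had H3K4me3 without H3K27me3.

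The H3K27me3 region at Ramp1 was 6111 bp wide in Glis3KO-LID, from 1618 bp before to 4492 bp after the TSS, and 1632 bp wide in WT-LID. The WT-LID list holds 2631 regions in all, so no region could be lost from it. The Glis3KO-LID region stayed when its list was kept to the widest 2631 regions. Glis3KO-LID also had regions of 1001 bp, the smallest width in that list, at 36467 to 37467 bp and 49798 to 50798 bp past the TSS. At Ube2f, in the same window, H3K4me3 was present in all 4 libraries. The genes closest to Ramp1 were Arsj, Phyhip and Pou2f3, at distances of 481, 602 and 681 bases, so no gene was near to its values.

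**Figure D4:**
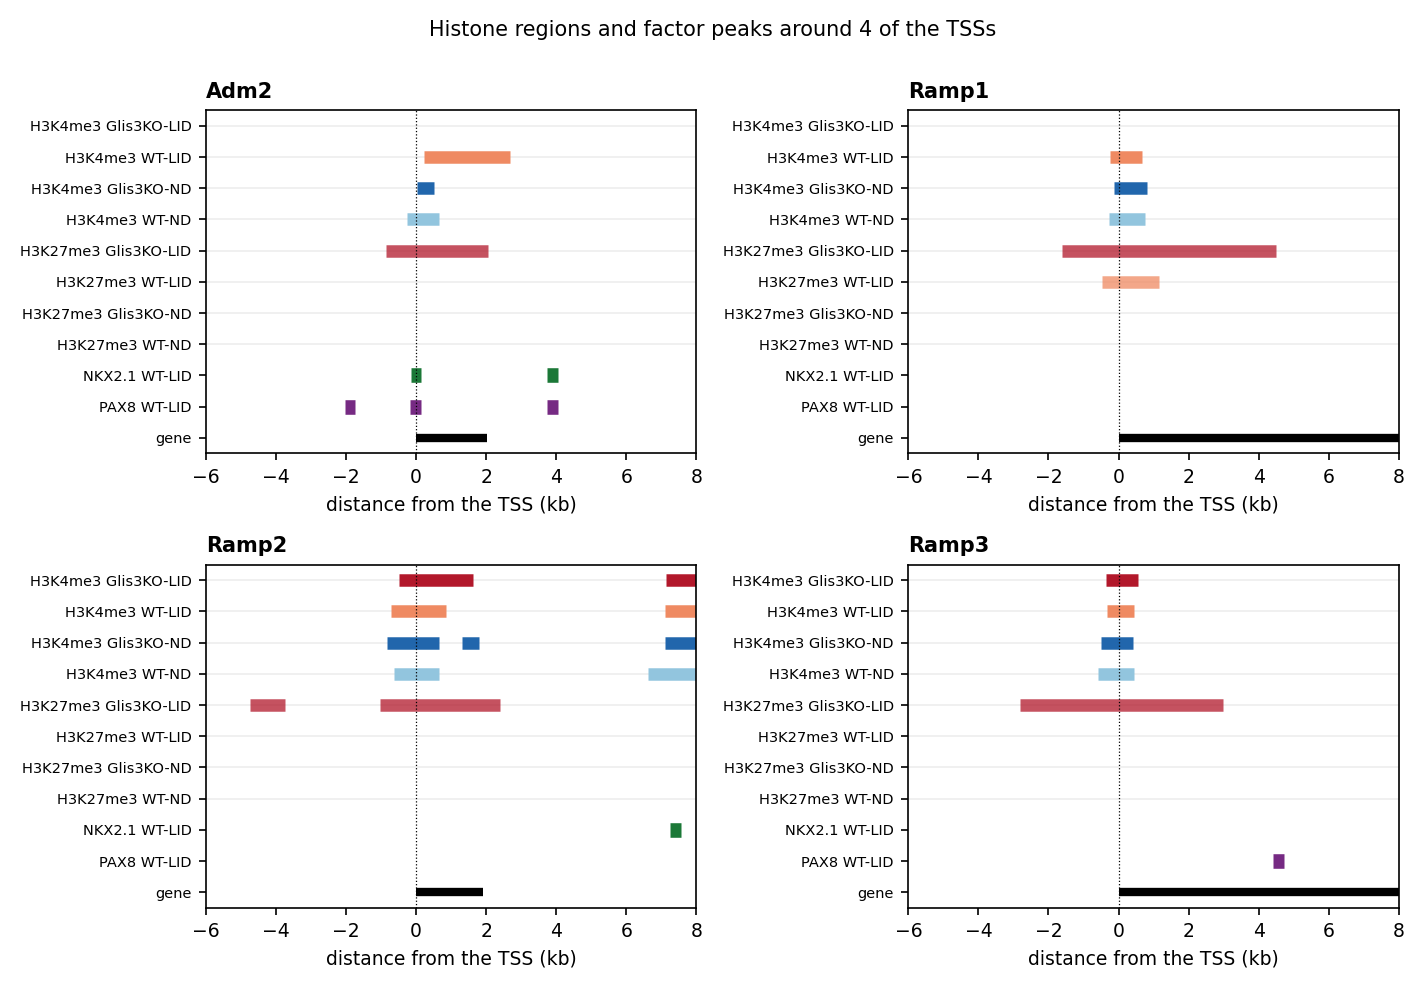
H3K4me3 regions (upper 4 rows), H3K27me3 regions (next 4 rows), NKX2.1 and PAX8 peaks and the gene (black) from 6 kb before to 8 kb after the TSS, in kb, for Adm2, Ramp1, Ramp2 and Ramp3, with rows in the order Glis3KO-LID, WT-LID, Glis3KO-ND and WT-ND. In Glis3KO-LID an H3K27me3 region spans each of the 4 TSSs, with an H3K4me3 region at Ramp2 and Ramp3 and none at Adm2 and Ramp1.

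Ramp2 and Ramp3, whose products make CALCRL a receptor for adrenomedullin, had H3K4me3 in every library. At Ramp2 it covered 1487 bases in Glis3KO-LID, 1587 in WT-LID, 1494 in Glis3KO-ND and 1295 in WT-ND. At Ramp3 it covered 898, 774, 907 and 1049 bases in the same order. The lowest value came from WT-ND at Ramp2 and from WT-LID at Ramp3, and the sign of the genotype difference was not the same on the 2 diets at either gene. At Ramp2 the sign also depended on the window, since with 2 kb either side Glis3KO-LID exceeded WT-LID by 12.8 percentage points.

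H3K27me3 at the TSSs of Ramp2 and Ramp3 was found in Glis3KO-LID alone, over all 2001 bases at each. At Ramp2 the region was 3434 bp wide, from 1042 bp before to 2391 bp after the TSS, and was lost with the list kept to its widest 2631 regions. At Ramp3 it was 5785 bp wide, from 2810 bp before to 2974 bp after the TSS, and stayed in that shorter list. The 2100 bp H3K4me3 region of Ramp2 and the 898 bp region of Ramp3 in Glis3KO-LID lay wholly within H3K27me3. Of all genes, 2245 (10.7%) had both marks within 1 kb of a TSS in Glis3KO-LID. With the widest 2631 H3K27me3 regions both marks were found at Ramp3 alone of the 6 genes, against 4.95% of all genes.

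Beyond the TSS, the Ramp2 window held H3K27me3 in every library along Wnk4, a kinase gene that regulates salt transport, between 14393 and 25572 bp past the Ramp2 TSS in Glis3KO-LID, from 16049 to 17335 bp and from 21606 to 22606 bp in WT-LID, between 15173 and 22565 bp in Glis3KO-ND and between 15388 and 17931 bp in WT-ND. It is the only place in the 6 windows with H3K27me3 in all 4 libraries. The Ramp3 window held 4 further regions in Glis3KO-LID and none in the others, and 2 PAX8 peaks past Ramp3, at 19092 and 20116 bp, overlapped one of them. The peak at 20116 bp did so only in part: the region ended at chr11:6678660 and the peak at chr11:6678799. The genes closest to Ramp2 were Sncaip, Septin5 and Cacna2d2 (distances of 141, 187 and 216 bases), and those closest to Ramp3 were Gm960, Rims3 and Mfsd4a (209, 220 and 251 bases).

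Set side by side, 3 of 6 genes (Adm2, Ramp2 and Ramp3) had H3K27me3 in Glis3KO-LID and in none of the other 3 libraries, against 7.33% of all protein-coding genes. H3K4me3 in the 3 other libraries and not in Glis3KO-LID was found at 2 of 6 (Adm2 and Ramp1), against 2.48%, and both of these had H3K27me3 in Glis3KO-LID, a combination found at 0.981% of all genes. With the widest 2631 H3K27me3 regions of each list, H3K27me3 in Glis3KO-LID alone was found at 1 of 6 genes (Ramp3), against 1.33%, and the last combination was found at Ramp1 and not at Adm2, against 0.51%. Among genes with H3K27me3 in Glis3KO-LID or WT-LID, 88.0% had more covered bases in Glis3KO-LID and 0.598% fewer, so the direction at these genes was that of nearly the whole list. With lists of equal length these shares were 59.7% and 20.3%. For H3K4me3, 68.1% of the genes marked in either LID library had fewer covered bases in Glis3KO-LID than in WT-LID and 26.4% had more, with a median difference of -114 bases.

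Related genes were counted in the same way. Of all protein-coding genes, 17.5%, 6.5%, 8.68% and 6.44% had H3K27me3 in Glis3KO-LID, WT-LID, Glis3KO-ND and WT-ND. With lists of equal length these shares were 7.5%, 6.5%, 7.55% and 6.05%. In the calcitonin family and its other receptors (Calca, Calcb, Iapp, Calcr and Crcp), H3K27me3 was found at 3 of 5 genes in Glis3KO-LID, 1 in WT-LID, 2 in Glis3KO-ND and 1 in WT-ND, and no gene had a TF peak within 5 kb of a TSS. With lists of equal length these counts were 2, 1, 2 and 0 of 5. Calca, which encodes calcitonin and calcitonin gene-related peptide and is a C cell gene in the thyroid, had the pattern of Adm2: H3K4me3 over 0, 931, 909 and 752 bases and H3K27me3 over 2001, 0, 0 and 0 bases in Glis3KO-LID, WT-LID, Glis3KO-ND and WT-ND. Of the genes that make or clear the peptides, Pam, the enzyme that amidates adrenomedullin, had H3K4me3 over 1779, 1688, 1665 and 1791 bases and no H3K27me3, with 14 NKX2.1 and 16 PAX8 peaks in its window. The decoy receptor gene Ackr3 had 2 peaks of each TF within 5 kb and H3K4me3 in all 4 libraries without H3K27me3.

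Among 9 genes of cAMP signalling, 9 had H3K4me3 in every library, against 60.1% to 63.0% of all genes in a library. Of these 9, 7 had an NKX2.1 peak, 7 a PAX8 peak and 5 a pair within 5 kb of a TSS. Among 10 thyrocyte markers these numbers were 8, 9 and 7. The 12 blood endothelial markers had 4, 3 and 2. Of all genes, 35.4%, 42.0% and 16.8% had an NKX2.1 peak, a PAX8 peak and a pair there, so the endothelial counts were near or below these shares. The endothelial markers had H3K27me3 at 5 of 12 genes in Glis3KO-LID (Pecam1, Cdh5, Flt1, Egfl7 and Cldn5) and at 1 of 12 in each of WT-LID, Glis3KO-ND and WT-ND, and with lists of equal length at 2 (Flt1 and Cldn5), 1, 1 and 1 of 12. The C cell markers had H3K27me3 at 4, 1, 2 and 2 of 6 genes, or 3, 1, 2 and 2 with lists of equal length, and H3K4me3 at 2, 4, 3 and 3 of 6. Thyrocyte markers had H3K27me3 at 2, 0, 1 and 1 of 10 genes (Slc5a5 and Duox2 in Glis3KO-LID), or 1, 0, 1 and 1 with lists of equal length. Genes of cAMP signalling had 2, 1, 1 and 1 of 9, or 1, 1, 1 and 1. Lymphatic endothelial markers had 3, 1, 2 and 2 of 5 with either. Smooth muscle and pericyte markers had 2, 2, 1 and 1 of 6, or 1, 2, 1 and 1. The part of the cell makeup of the glands in the marks at the 6 genes was not tested.

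**Figure D5:**
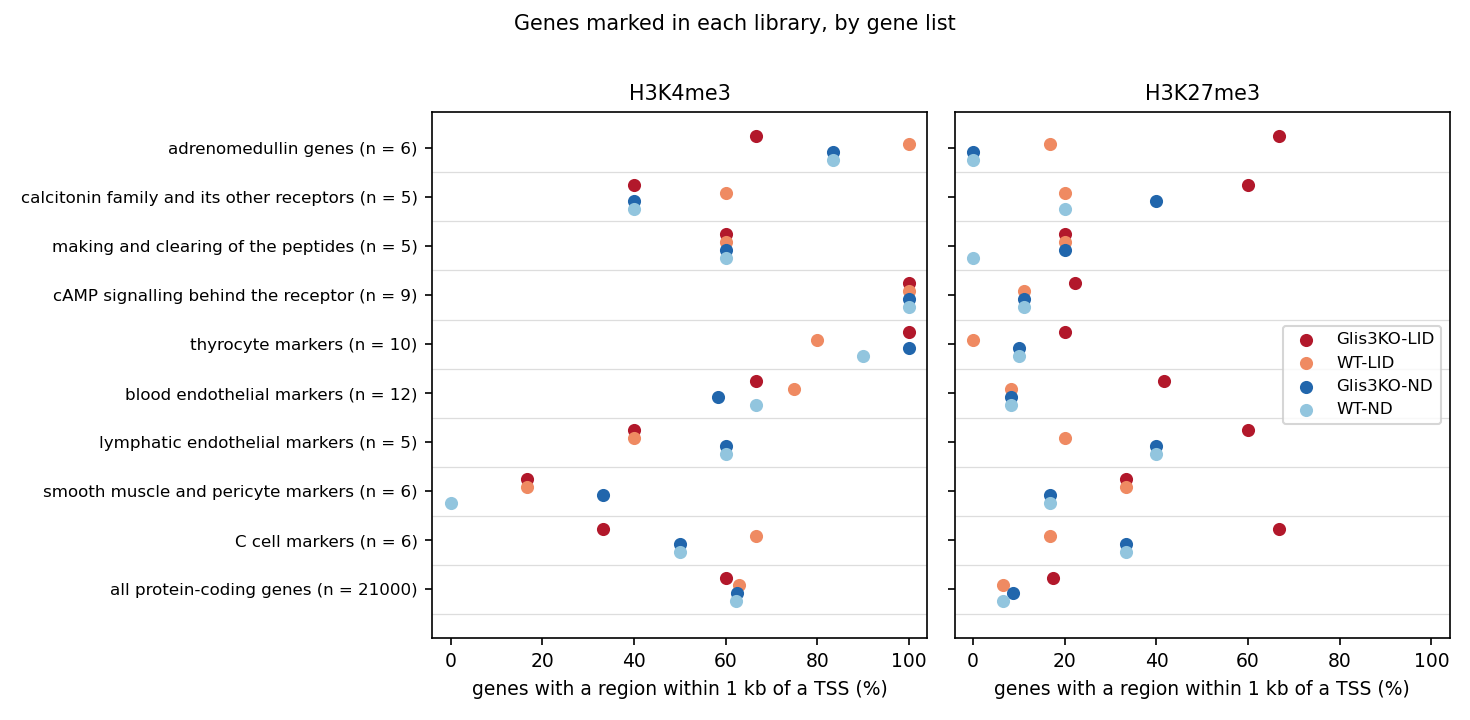
Percentage of the genes of each list (rows, with the number of genes) that had an H3K4me3 (left) or H3K27me3 (right) region within 1 kb of a TSS in Glis3KO-LID, WT-LID, Glis3KO-ND and WT-ND, 1 point for each library. With the full lists drawn here, the Glis3KO-LID point for H3K27me3 lies furthest right or ties for it in every row, and among all protein-coding genes it is 17.5%.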

How the data were processed

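Deposited peak lists of 10 mouse thyroid ChIP-seq libraries, 1 per antibody, genotype and diet, were used as deposited. Per the study's methods and the submitters' processing notes, reads were trimmed with cutadapt 1.12, aligned to mm10 with Bowtie 1.2 keeping unique hits, freed of duplicates with Picard 1.110 and passed to HOMER 4.10.3, and the notes name bedtools 2.24.0 where the methods name another version. TF peaks were called against an input and set to 300 bp. Histone regions were called with a wider, more widely joined setting for H3K27me3 than for H3K4me3, which sets their smallest widths of 1001 and 501 bp. The deposited lists give intervals with no score, so weak and strong peaks count alike, the depth is unknown, and the score cutoffs behind them could not be checked. Both TF lists are longer than the peak sets the study describes, and the reason was not found.

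Starts were converted to a count from 1. Genes, exons and TSSs came from curated RefSeq transcripts of GRCm38.p6. A TF peak was counted where at least 1 bp lay in the gene or 50 kb either side, or within 5 kb of a TSS, and a histone mark where a region reached within 1 kb of a TSS. Covered bases are bases of these TSS windows under regions, out of 2001 for each of the 6 genes and more for genes with several TSSs. Values for all 21000 genes give the background. No test was run, since each group had 1 library. Counting was done in Python 3.11.15 with NumPy 2.4.6, after the code had been tested on simulated intervals, and figures were drawn with matplotlib 3.10.9.

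The genes named are the 6 members, genes of the related lists, genes whose TSS lies in a member's window, and for each member the 3 genes with the smallest Euclidean distance over covered bases in the 8 histone lists. Members and lists were chosen with earlier results of these data known, and related lists are therefore counted only. Alternatives were other windows, overlap rules, transcript sets and lists of equal length. The 8 input libraries have no list of their own, and the rat PCCl3 lists and the merged histone lists were not used here.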

Additional observations from a re-analysis of the deposited data

Results flagged for a closer look

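At 3 genes the Glis3KO minus WT difference in bases covered by H3K4me3 within 1 kb of the TSS had opposite signs on the 2 diets, each from 1 library per group, and the difference between diets was not tested. At Adm it was -220 on the LID and 161 on the ND, -381 apart. At Ramp2 it was -100 on the LID and 199 on the ND, -299 apart, and there the LID minus ND difference also had opposite signs in the genotypes, -7 in Glis3KO and 292 in WT, again -299 apart. At Ramp3 it was 124 on the LID and -142 on the ND, 266 apart.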

How the results depend on the processing

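Of 69 alternative counts, 57 were within 1.5 times the reported count. Members with an NKX2.1 peak, a PAX8 peak or a pair numbered 1, 3 and 1 in the gene body alone. With 5 kb either side of the gene there were 2 with an NKX2.1 peak and 2 with a pair. Within 5 kb of the TSSs the numbers were 2, 3 and 2, and with 10 or 20 kb either side 2 genes had a pair. Pairs with midpoints within 50 bp numbered 8 instead of 13. With lists of equal length, 2 genes had H3K27me3 in Glis3KO-LID instead of 4. Further comparisons of equal-length H3K27me3 lists were chosen after seeing the data. In these, 1 gene instead of 3 had H3K27me3 in Glis3KO-LID alone, and 1 instead of 2 had both marks there. H3K27me3 without H3K4me3 there, with H3K4me3 in the other libraries, was found at 1 gene instead of 2. In addition, 2 PAX8 peaks instead of 5 and 0 NKX2.1 peaks instead of 1 overlapped H3K27me3 of Glis3KO-LID. Of 96 alternative differences in covered share, 90 had the same sign, 3 reached or left 0 and 3 turned round, each with 2 kb either side: Glis3KO-LID minus WT-LID at Ramp2 (12.8 percentage points for H3K4me3), Glis3KO-LID minus Glis3KO-ND at Ramp2 (2.62) and WT-LID minus WT-ND at Adm2 (20.9). A stricter peak threshold was not run, as the lists hold no score, nor was leaving out a library, with 1 per group. No paired analysis was possible because each group had 1 library. With neither replicates nor read numbers, differences of covered bases between libraries have no known error.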

Other observations

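The Wnk4 gene next to Ramp2 had PAX8 peaks 14249 and 23958 bp past the Ramp2 TSS that overlapped H3K27me3 regions in Glis3KO-LID and in none of the other 3 libraries, although H3K27me3 was present elsewhere along Wnk4 in all 4. The peak at 14249 bp met the region only at its edge: the peak ended at chr11:101260733 and the region began at chr11:101260727. This edge contact is counted in the shares below, with the full lists and with the widest regions. Of the 33 PAX8 peaks in the 6 windows, 5 (15.2%) overlapped an H3K27me3 region of Glis3KO-LID, against 2.92% of all PAX8 peaks, and 0 overlapped one of the other 3 libraries, against 0.585%, 0.917% and 0.582% in WT-LID, Glis3KO-ND and WT-ND. These peaks were at Adm2, Ramp2 and Ramp3. With each list kept to its 2631 widest regions, 2 of 33 (6.06%, both along Wnk4) overlapped H3K27me3 of Glis3KO-LID, against 1.6% of all PAX8 peaks. Of the 23 NKX2.1 peaks, 1 (4.35%) overlapped H3K27me3 of Glis3KO-LID, against 1.54% of all NKX2.1 peaks, and with the widest regions 0 did, against 0.838%. Overlap with H3K4me3 was found for 5, 4, 6 and 6 of 23 NKX2.1 peaks in Glis3KO-LID, WT-LID, Glis3KO-ND and WT-ND. These were 21.7%, 17.4%, 26.1% and 26.1%, against 9.19%, 10.3%, 10.2% and 10.7% of all NKX2.1 peaks. Such overlap was found for 6, 6, 7 and 9 of 33 PAX8 peaks. These were 18.2%, 18.2%, 21.2% and 27.3%, against 12.3%, 13.4%, 13.3% and 13.8% of all PAX8 peaks. Most of the overlaps were at the TSSs of neighbouring genes.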
